A study of Sus scrofa with 9 samples.

Results

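CD79A, MS4A1 and CD1.1 are genes of B cells, and their transcripts were read here in sorted T cells from pig blood. They were chosen by the level of CD79A, which stood high in CD3+CD8+ cells in earlier results of these data. They were looked up together with CD79B and CD22 to ask whether other B cell genes stood high beside it. All probes whose sequence accession leads to 1 of the 5 genes in the pig annotation were taken. That gave 3 of the 3052 genes with a named probe and 5 of the 43603 probes on the array, of which 1 reads CD79A, 1 reads MS4A1 and 3 read CD1.1. No probe led to CD79B or CD22, and these genes are not analysed here.

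The study sorted mononuclear cells from the blood of sows, isolated on Percoll, into CD3+CD8+, CD3+CD4+CD8+ and CD3+CD4+ fractions, with 3 arrays of a single colour per fraction. No treatment is named, and all fractions share the source, the kit for amplification and the dye. The gates are named by the markers the cells carry, and the purity of the sort, the breed, the number and age of the sows and whether cells were pooled are not stated. The labels call the arrays biological replicates, but nothing says that they came from separate animals, so the p-values below measure the spread between these arrays, which may be technical.

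A B cell recognises antigen with a surface immunoglobulin, and CD79A pairs with CD79B to carry that signal into the cell, where the kinases SYK and BTK and the adaptors BLNK and PIK3AP1 pass it on. CD81 sits beside the receptor on the cell surface, and CD22, CD72 and FCGR2B restrain the signal. MS4A1 encodes CD20, a membrane protein of B cells before the plasma cell stage. CD1.1 is a pig CD1 molecule, of the family that presents lipid antigens, and CD1 molecules are found on B cells, dendritic cells and thymocytes.

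The arrays differed in brightness, with ranges that overlapped between the fractions. The 75th percentile of each array's signal, which was used to scale it, ran from 18.3 to 29.6 on the CD3+CD8+ arrays, from 18.9 to 42.3 on the CD3+CD4+CD8+ arrays and from 15.1 to 83.7 on the CD3+CD4+ arrays. A probe is called detected below where the scanner software marks its spots as well above background, and undetected otherwise. Detected probes made up 33.9% to 45.5%, 38.1% to 45.9% and 32.6% to 53.7% of each array in the same order of fractions. No spot was saturated, and the number of arrays limits the precision. The sort showed in its markers. CD4, the coreceptor of helper T cells, was lower in CD3+CD8+ cells than in CD3+CD4+CD8+ cells by its brighter probe (log2 difference -4.17, SE 0.64, limma adjusted p = 0.0208) and than in CD3+CD4+ cells (-3.96, adjusted p = 0.0144). CD8A, which encodes part of the coreceptor on cytotoxic T cells, was higher in CD3+CD8+ than in CD3+CD4+ cells by 5.08 (SE 0.49, adjusted p = 0.000984). CD3E, a chain of the T cell receptor complex, was detected on all 9 arrays at means of 5.39, 5.49 and 5.26 in CD3+CD8+, CD3+CD4+CD8+ and CD3+CD4+ cells, on the log2 scale used throughout, where 0 is the array's 75th percentile.

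CD79A was bright on every CD3+CD8+ array and several-fold dimmer elsewhere. Its processed signal was 208, 127 and 351 on the CD3+CD8+ arrays, 55.6, 15.0 and 34.4 on the CD3+CD4+CD8+ arrays and 78.7, 14.8 and 44.9 on the CD3+CD4+ arrays. The probe was detected on all 9 arrays, so the other fractions were dim and not without signal. On the scaled log2 axis the 3 CD3+CD8+ arrays stood at 3.50, 2.39 and 3.56, above the CD3+CD4+CD8+ arrays at 0.48, -1.50 and 0.86 and the CD3+CD4+ arrays at -0.10, -0.04 and 0.64. The CD3+CD8+ arrays did not overlap with any other array, while the other fractions overlapped with each other.

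CD79A averaged 3.15 ± 0.66 in CD3+CD8+ cells, -0.05 ± 1.27 in CD3+CD4+CD8+ cells and 0.17 ± 0.41 in CD3+CD4+ cells (log2, SD, n = 3 each). The difference was 3.20 (SE 0.60) between CD3+CD8+ and CD3+CD4+CD8+ cells, or 9.22-fold, and 2.98 (SE 0.60) between CD3+CD8+ and CD3+CD4+ cells, or 7.91-fold. Between CD3+CD4+CD8+ and CD3+CD4+ cells it was -0.22 (SE 0.60), less than its standard error. CD79A was chosen for this pattern, so the values are a description and carry no test. Of the 16026 probes tested, 229 (1.43%) likewise had all CD3+CD8+ arrays above all others. In bulk samples, fewer cells of a type and less RNA per cell cannot be told apart.

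The CD79A difference was also present within each slide that held several fractions. On the slide with 2 CD3+CD8+ arrays it was 4.45 against CD3+CD4+CD8+ cells and 2.99 against CD3+CD4+ cells. On the slide with 1 CD3+CD8+ array it was 2.71 and 3.29. The remaining slide held 1 CD3+CD4+CD8+ array alone and gives no value. The array of CD3+CD4+CD8+ replicate 2 was the dimmest in its fraction, and without it the difference to that fraction was 2.48 (SE 0.52). Background correction by normexp with quantile normalization gave 1.78 (SE 0.31) against CD3+CD4+CD8+ cells and 1.81 (SE 0.31) against CD3+CD4+ cells, the lowest of the 18 alternatives, all of which kept the sign of both differences.

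**Figure D1:**
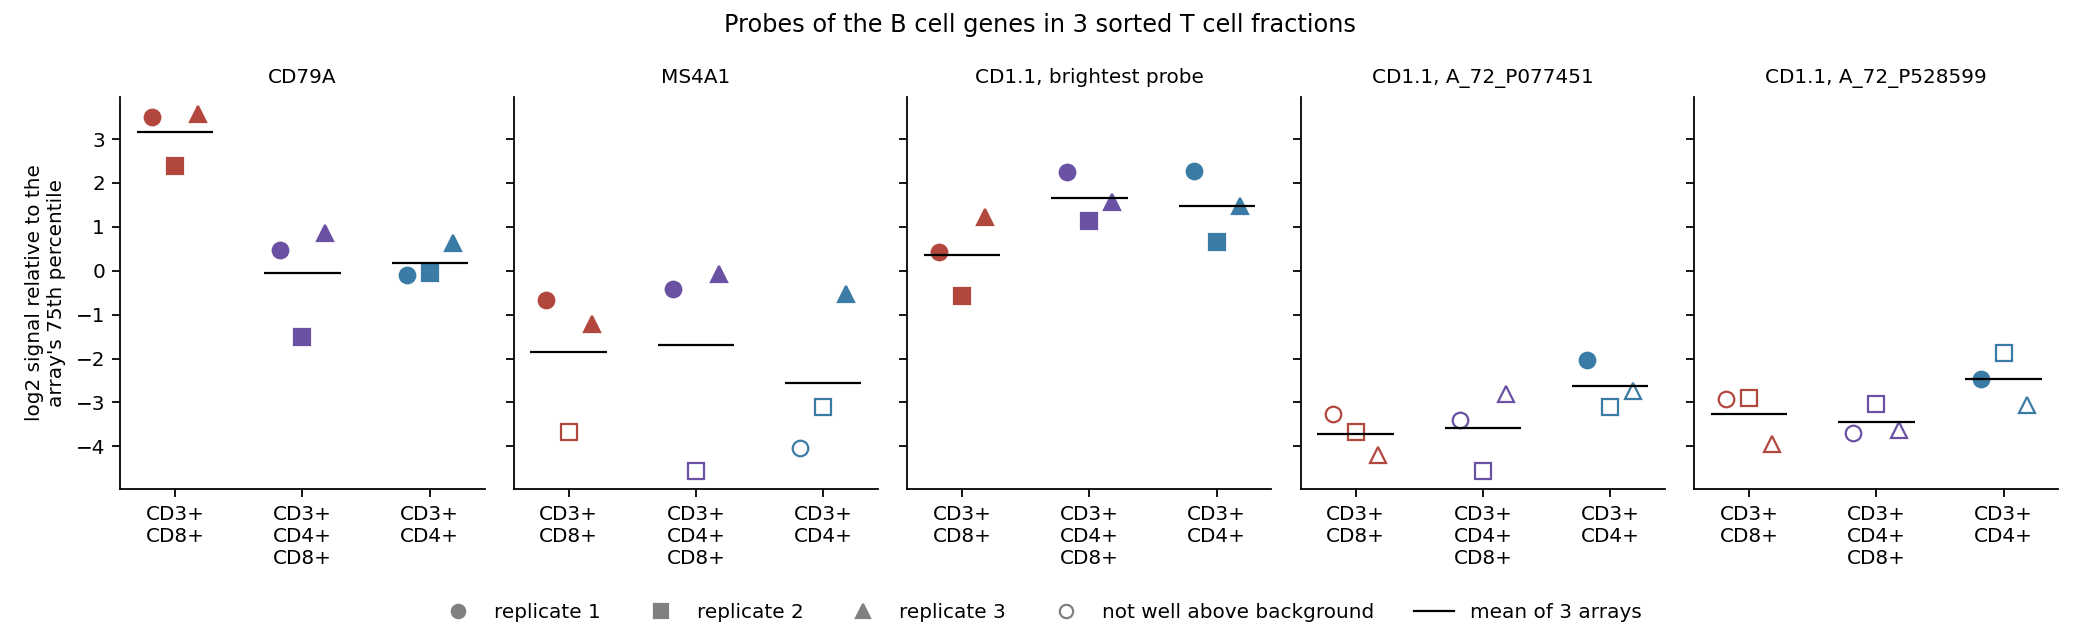
Level of each probe of CD79A, MS4A1 and CD1.1 on the 9 arrays, as log2 signal relative to the array's 75th percentile (y axis) in the CD3+CD8+, CD3+CD4+CD8+ and CD3+CD4+ fractions (x axis). Symbols mark the replicate number, open symbols a probe not well above background, and lines the mean of 3 arrays. CD79A stands apart in CD3+CD8+ cells, and the MS4A1 and CD1.1 probes do not.

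MS4A1 did not follow CD79A. Its signal was 11.6, 1.9 and 12.8 on the CD3+CD8+ arrays, 30.0, 1.8 and 18.0 on the CD3+CD4+CD8+ arrays and 5.1, 1.8 and 20.1 on the CD3+CD4+ arrays. It was detected on 2, 2 and 1 of 3 arrays in these fractions, and the fractions overlapped throughout. The means were -1.85 ± 1.61, -1.68 ± 2.51 and -2.56 ± 1.82 (log2, SD, n = 3 each). Because the probe was not detected on all arrays of any fraction, it was outside the tested probes. In a fit over all 43603 probes the difference between CD3+CD8+ and CD3+CD4+CD8+ cells was -0.17 (SE 1.02, limma adjusted p = 0.992), and that between CD3+CD8+ and CD3+CD4+ cells was 0.70 (SE 1.02, adjusted p = 0.993). With standard errors of this size, even a difference as large as that of CD79A might not pass for MS4A1. In the same fit an FCGR2B probe differed by 3.10 (SE 1.04) between CD3+CD8+ and CD3+CD4+ cells at limma adjusted p = 0.799.

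CD1.1 ran the other way from CD79A by its brightest probe, without passing the test. This probe, A_72_P528732, gave a signal of 24.7, 16.4 and 69.6 on the CD3+CD8+ arrays, 189.7, 93.9 and 56.7 on the CD3+CD4+CD8+ arrays and 404, 23.9 and 80.3 on the CD3+CD4+ arrays. It was detected on all 9 arrays. The means were 0.36 ± 0.90 in CD3+CD8+ cells, 1.66 ± 0.56 in CD3+CD4+CD8+ cells and 1.47 ± 0.81 in CD3+CD4+ cells, with overlap between all fractions. The difference was -1.30 (SE 0.56, limma adjusted p = 0.717) between CD3+CD8+ and CD3+CD4+CD8+ cells, and it was -1.10 (SE 0.56, adjusted p = 0.999) between CD3+CD8+ and CD3+CD4+ cells. Within the slides these differences were -1.21 and -0.35 against CD3+CD4+CD8+ cells, and -0.72 and -0.64 against CD3+CD4+ cells.

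The other CD1.1 probes, A_72_P077451 and A_72_P528599, were detected on 1 of 9 arrays, that of CD3+CD4+ replicate 1, at signals of 20.4 and 15.1. On the other arrays their signals lay close to background, with 1.5 to 5.1 as the range over both probes. That array was also the brightest of the series. These probes give no order of the fractions.

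To widen the search, 75 B lineage genes besides CD79A were listed from textbook knowledge, in 4 groups: receptor signalling, cell surface, transcription factors, and immunoglobulin with plasma cells. Of these, 19 had a named probe, with 47 probes in all, and 7 genes had a tested probe. None of these 7 genes passed the test in any comparison. The share of all tested probes called was 0.312% for CD3+CD8+ against CD3+CD4+CD8+ cells, 0.437% for CD3+CD8+ against CD3+CD4+ cells and 0.293% for CD3+CD4+CD8+ against CD3+CD4+ cells, so a count of 0 among 19 tested probes is close to that background. At an unadjusted p under 0.05, limma gave 2, 1 and 0 genes in these comparisons, CD1.1 and CD1D in the first and CD1D in the next, all lower in CD3+CD8+ cells, where 6.53%, 4.54% and 4.84% of all tested probes were below that p. With the replicate number as a block, the first comparison called 0.518% of the tested probes and again none of the 7 genes. The fit over all probes, which called 0.2%, 0.222% and 0.25% of them, also called 0 of the 47. At an unadjusted p under 0.05 it gave 5, 4 and 0 of the 47, against 3.45%, 2.71% and 2.74% of all probes. Those higher in CD3+CD8+ cells were the same 3 in the first and the next comparison, a pair of PIK3AP1 probes and 1 of FCGR2B. Those lower were 1 probe each of CD1.1 and CD1D in the first and that of CD1D in the next. The median difference over the 7 genes, each by its brightest probe, was -0.79, -0.85 and 0.09, against 0.03, 0.01 and -0.02 over all tested probes. Of the 7, only CD81, CD1.1 and XBP1 had a probe detected on all 3 CD3+CD8+ arrays. CD1D, FCGR2B, POU2F2 and LOC396781 were tested only through detection in another fraction, and the PIK3AP1 probes were left out. These medians therefore do not show that B lineage genes ran lower in CD3+CD8+ cells.

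**Figure D2:**
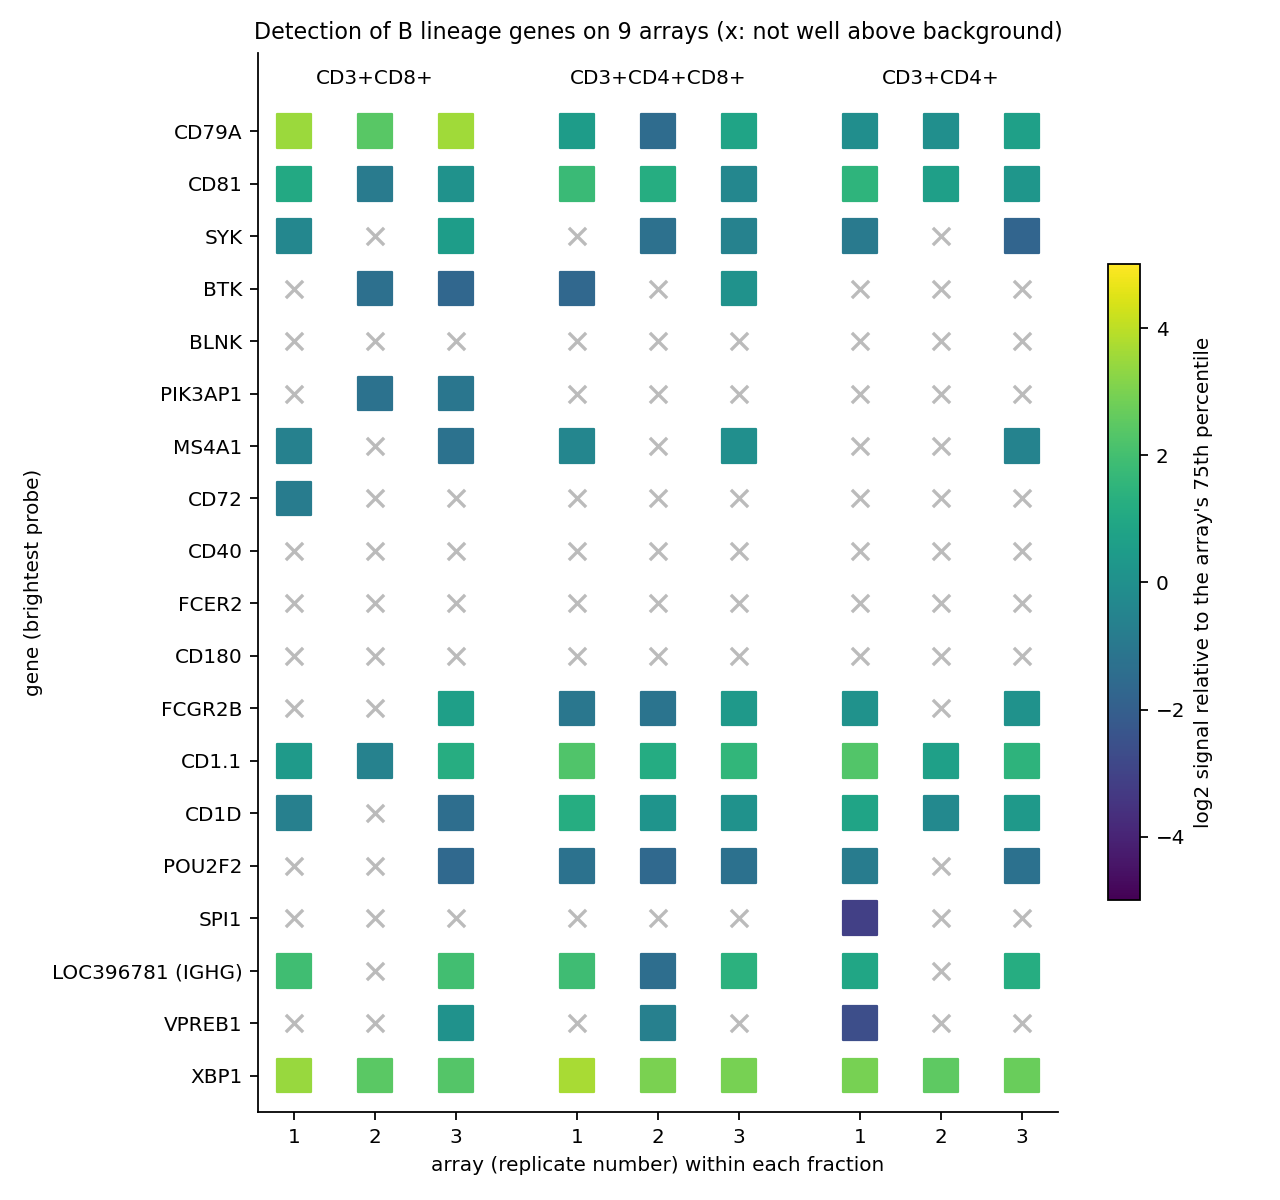
Detection and level of CD79A and 18 other B lineage genes (rows, each by its brightest probe) on the 9 arrays (columns, by fraction and replicate number). Colour gives log2 signal relative to the array's 75th percentile where the probe was well above background, and a cross marks where it was not. CD79A is coloured on every array, and BLNK, CD40, FCER2 and CD180 on none.

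Among the genes of receptor signalling, SYK, BTK and BLNK were faint or undetected on some or all arrays. BLNK, the adaptor below SYK, was undetected on all 9 arrays. BTK gave 7.7, 9.6 and 9.1 on the CD3+CD8+ arrays, 12.5, 1.8 and 20.3 on the CD3+CD4+CD8+ arrays and 4.1, 3.4 and 3.6 on the CD3+CD4+ arrays. It was detected on 2 of 3 arrays in CD3+CD8+ cells, 2 of 3 in CD3+CD4+CD8+ cells and on none in CD3+CD4+ cells. SYK, by its brighter probe, gave 14.3, 5.9 and 42.7, then 1.8, 17.1 and 12.7, then 44.1, 3.3 and 8.5 in the same order, so its fractions overlapped. CD81, which many cell types express, was detected on all 9 arrays and differed by -0.79 (SE 0.64, limma adjusted p = 0.997) between CD3+CD8+ and CD3+CD4+CD8+ cells.

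PIK3AP1 was the 1 B lineage gene besides CD79A that lay above both other fractions on every CD3+CD8+ array. It encodes an adaptor between the B cell receptor and phosphoinositide 3-kinase that is also used in natural killer and myeloid cells. Its probe A_72_P489965 gave 9.4, 22.3 and 12.3 on the CD3+CD8+ arrays, 1.8, 2.8 and 1.5 on the CD3+CD4+CD8+ arrays and 2.0, 1.9 and 1.7 on the CD3+CD4+ arrays. It was detected on 2 of the 3 CD3+CD8+ arrays and on no other array. Where a probe is undetected throughout a fraction, a fold is given as a lower bound. The bound sets the mean of the brighter fraction against the mean of, per array, the lowest signal well above background or the probe's own signal, whichever is higher. Undetected arrays of the brighter fraction enter at their own signal. Each bound given here includes such an array, so it is approximate. By this bound PIK3AP1 was 2.15-fold higher in CD3+CD8+ than in CD3+CD4+CD8+ cells and 2.20-fold higher than in CD3+CD4+ cells. A further probe, A_72_P363698, gave bounds of 1.59-fold and 1.63-fold, and the remaining one was undetected on all arrays. For BTK, undetected in CD3+CD4+ cells, the bound was 1.41-fold higher in CD3+CD8+ cells. For CD72, detected on 1 CD3+CD8+ array only, it was 1.17-fold against CD3+CD4+CD8+ cells and 1.20-fold against CD3+CD4+ cells. Its CD3+CD8+ and CD3+CD4+ arrays overlapped, and in the fit over all probes limma adjusted p was 0.957 and 0.993. The other CD72 probe was undetected on all arrays, so no direction is given for CD72.

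None of the PIK3AP1 probes met the condition for testing. In the fit over all probes, A_72_P489965 differed by 3.21 (SE 0.81, limma adjusted p = 0.129) between CD3+CD8+ and CD3+CD4+CD8+ cells and by 3.40 (SE 0.81, adjusted p = 0.0761) between CD3+CD8+ and CD3+CD4+ cells, and so it did not pass. The PIK3AP1 probes make 2 of 47 B lineage probes (4.26%) with all CD3+CD8+ arrays above all others, against 0.883% of all 43603 probes, and both read the same gene.

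Genes of the B cell surface were mostly dim. CD40, the receptor for T cell help, FCER2, a low-affinity receptor for IgE, and CD180, a relative of the Toll-like receptors, were undetected on all arrays, and CD72 was detected on 1 CD3+CD8+ array at 10.2. CD1D, which presents lipids to natural killer T cells, gave 11.5, 3.0 and 11.2 on the CD3+CD8+ arrays, 90.6, 47.9 and 19.9 on the CD3+CD4+CD8+ arrays and 150.0, 12.4 and 37.3 on the CD3+CD4+ arrays. On the scaled axis every CD3+CD8+ array lay below all others, as for 1 of the 47 probes (2.13%) and 0.633% of all probes. The difference was -2.18 (SE 0.63, limma adjusted p = 0.289) between CD3+CD8+ and CD3+CD4+CD8+ cells and -2.01 (SE 0.63, adjusted p = 0.490) between CD3+CD8+ and CD3+CD4+ cells, so it did not pass. Within the slides the CD1D difference was -2.03 and -1.47 against CD3+CD4+CD8+ cells and -1.56 and -2.01 against CD3+CD4+ cells.

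FCGR2B, the inhibitory receptor for IgG, gave different pictures by its probes. A_72_P165486 was detected on 2 CD3+CD8+ arrays, at 63.0 and 10.8, and on no array of the other fractions. It was not among the tested probes, and in the fit over all probes it differed by 2.34 (SE 1.04, limma adjusted p = 0.957) between CD3+CD8+ and CD3+CD4+CD8+ cells and by 3.10 (SE 1.04, adjusted p = 0.799) between CD3+CD8+ and CD3+CD4+ cells. Its bounds, approximate as above, were 1.71-fold and 1.75-fold higher in CD3+CD8+ cells, and the arrays of the fractions overlapped. A_72_P730723 was detected on 1, 3 and 2 of 3 arrays of CD3+CD8+, CD3+CD4+CD8+ and CD3+CD4+ cells, and differed by -0.71 (SE 0.80) between CD3+CD8+ and CD3+CD4+CD8+ cells. The third was undetected on all arrays. With probes that disagree in sign, no direction is given for FCGR2B.

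Of the B cell transcription factors, 2 of 13 had a probe. POU2F2, the octamer factor Oct-2, was detected on 1, 3 and 2 of 3 arrays of CD3+CD8+, CD3+CD4+CD8+ and CD3+CD4+ cells and differed by -0.84 (SE 0.67, limma adjusted p = 0.997) between CD3+CD8+ and CD3+CD4+CD8+ cells. SPI1, which encodes PU.1, was detected on 1 CD3+CD4+ array. In the plasma cell group, XBP1, a factor of secretory cells and of the unfolded protein response, averaged 2.75, 3.20 and 2.73 in CD3+CD8+, CD3+CD4+CD8+ and CD3+CD4+ cells by its brightest probe and was not called. VPREB1, part of the surrogate light chain of B cell precursors, was detected on 1 array of each fraction.

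Immunoglobulin G heavy chain transcripts differed more between arrays of a fraction than between fractions. They were read by 13 probes of LOC396781, for which the annotation gives the synonym IGHG. This is a family of near-identical genes, and the probes may not tell its members apart. The median over the 13 probes was 1.14, -3.68 and 1.69 on CD3+CD8+ arrays 1 to 3, 1.34, -1.76 and 0.56 on the CD3+CD4+CD8+ arrays and 0.72, -2.26 and 0.07 on the CD3+CD4+ arrays. In each fraction the array with replicate number 2 was the lowest, for 13, 13 and 11 of the 13 probes. Detected were 11, 0 and 12 of 13 probes on CD3+CD8+ arrays, 12, 9 and 10 on CD3+CD4+CD8+ arrays and 13, 2 and 10 on CD3+CD4+ arrays. Of 9 probes tested, 0 were called in any comparison, with limma adjusted p of 0.999 or more and a lowest unadjusted p of 0.472. The share of all tested probes called was 0.312%, 0.437% and 0.293% in the 3 comparisons.

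The 2 low arrays of CD3+CD8+ and CD3+CD4+CD8+ cells were low in MS4A1 as well, at -3.68 and -4.57, where the probe was undetected. The CD3+CD4+ arrays did not follow this, since MS4A1 was at -4.04 on replicate 1 and -3.11 on replicate 2, undetected on both. The replicate 2 arrays had 36.4% of all probes detected in CD3+CD8+ cells, 45.9% in CD3+CD4+CD8+ cells and 32.6% in CD3+CD4+ cells, and the part of detection in the low immunoglobulin values was not tested. CD79A on the replicate 2 arrays was 2.39 in CD3+CD8+ cells, against -1.50 in CD3+CD4+CD8+ cells and -0.04 in CD3+CD4+ cells. In CD3+CD8+ and CD3+CD4+CD8+ cells these were the lowest CD79A values of the fraction. Within replicate numbers 1, 2 and 3 the CD79A difference was 3.02, 3.89 and 2.71 against CD3+CD4+CD8+ cells, and 3.60, 2.43 and 2.92 against CD3+CD4+ cells. The numbers are those of the scanner files. In the deposited table of processed values, CD3+CD8+ columns 1, 2 and 3 follow scanner files 3, 1 and 2, so the numbering within that fraction is uncertain, though not which fraction an array belongs to.

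**Figure D3:**
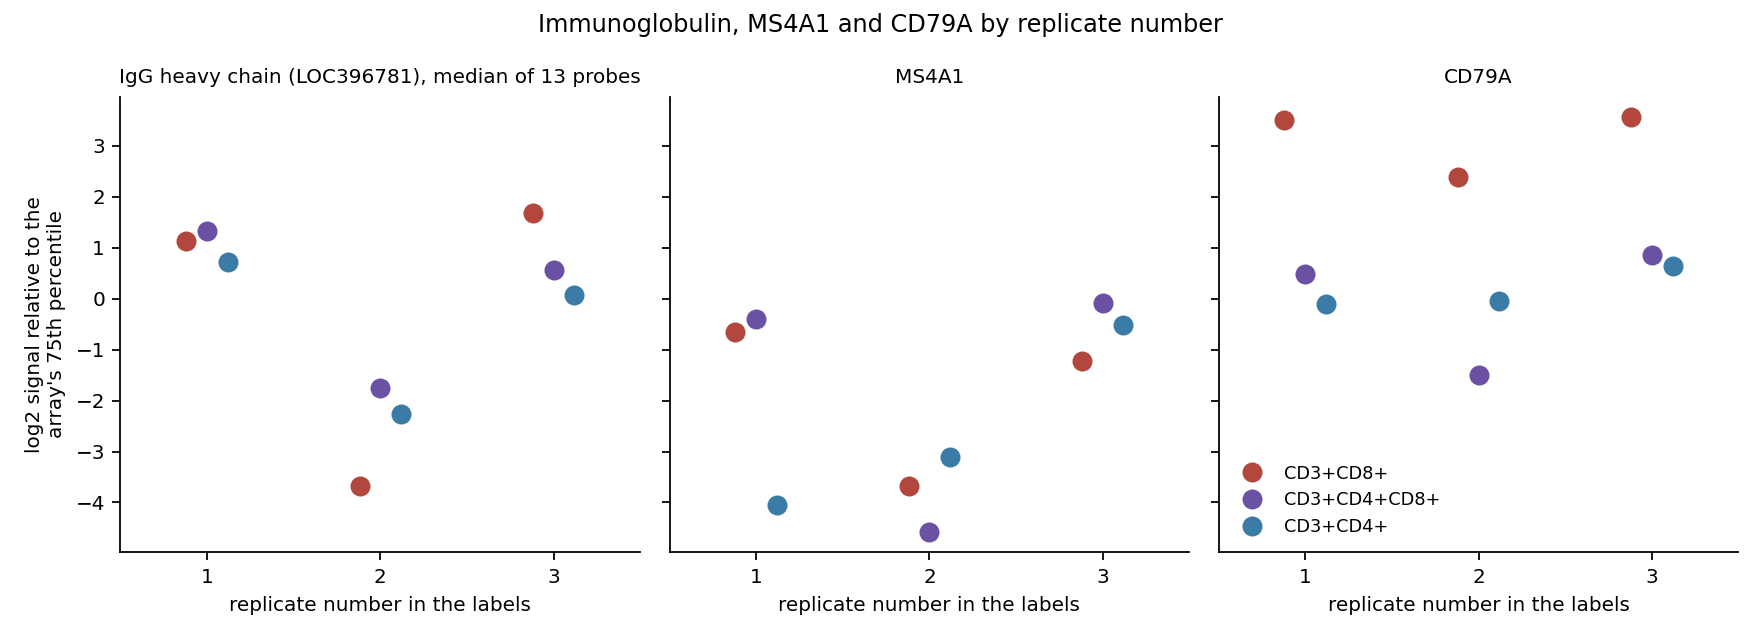
Log2 signal relative to the array's 75th percentile (y axis) of IgG heavy chain (median of 13 probes), MS4A1 and CD79A by replicate number in the labels (x axis), with 1 point per array coloured by fraction. Replicate 2 is lowest in immunoglobulin in all 3 fractions, and CD79A is highest in CD3+CD8+ cells at each number. Points below about -3 for MS4A1 are not well above background.

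Among named genes with a tested probe, those with levels most like that of CD79A over the 9 arrays were not from the B lineage lists. Only 7 of the 19 B lineage genes with a probe had a tested one. PIK3AP1, MS4A1, BTK and SYK did not, so the ranking does not show how closely they followed CD79A. Pearson r was computed against 1502 named genes with a tested probe, each by its brightest probe, as a description, since all points share the arrays and 3 of them the high fraction. The closest were RPS23, a protein of the small ribosomal subunit (r = 0.91), MRPL24, of the mitochondrial ribosome (0.90), and FCER1G, the signalling chain of Fc receptors (0.90). ATP6V1G2, a subunit of the vacuolar proton pump (0.89), AIF1, a calcium-binding protein known from macrophages (0.88), and UCHL1, a deubiquitinase (0.87), followed. Their sizes differed widely. RPS23 averaged 9.37 ± 0.24 in CD3+CD8+ cells, 8.68 ± 0.38 in CD3+CD4+CD8+ cells and 8.82 ± 0.19 in CD3+CD4+ cells. UCHL1 averaged 0.97 ± 0.92 in CD3+CD8+ cells, where it was detected on 3 of 3 arrays, and it was undetected on all arrays of the other fractions. FCER1G averaged 2.00 ± 0.20 in CD3+CD8+ cells, -0.33 ± 2.17 in CD3+CD4+CD8+ cells, 1 array of which reached 1.88, and -0.27 ± 0.60 in CD3+CD4+ cells.

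Of the B lineage and antigen presentation genes looked up in this ranking, SLA-DRA came nearest at rank 78 (r = 0.59). LOC396781 followed at rank 197 (0.42) and CD74 at rank 211 (0.41). XBP1 was at rank 973 (-0.14), CD81 at rank 1343 (-0.42), CD1.1 at rank 1366 (-0.44) and CD1D at rank 1464 (-0.63). With each fraction's mean taken out, r with CD79A was 0.84 for LOC396781 and 0.82 for SLA-DRA. It was 0.54 for CD74, 0.52 for CD1.1, 0.45 for CD1D, 0.27 for XBP1 and -0.10 for CD81. For the genes ranked closest to CD79A it was 0.84 for FCER1G, 0.78 for RPS23, 0.76 for AIF1, 0.68 for MRPL24, 0.60 for ATP6V1G2 and 0.29 for UCHL1. These were picked for a high r on the same arrays, so they give no background for the values above. The share of all 1502 genes that reach such values is not given here.

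**Figure D4:**
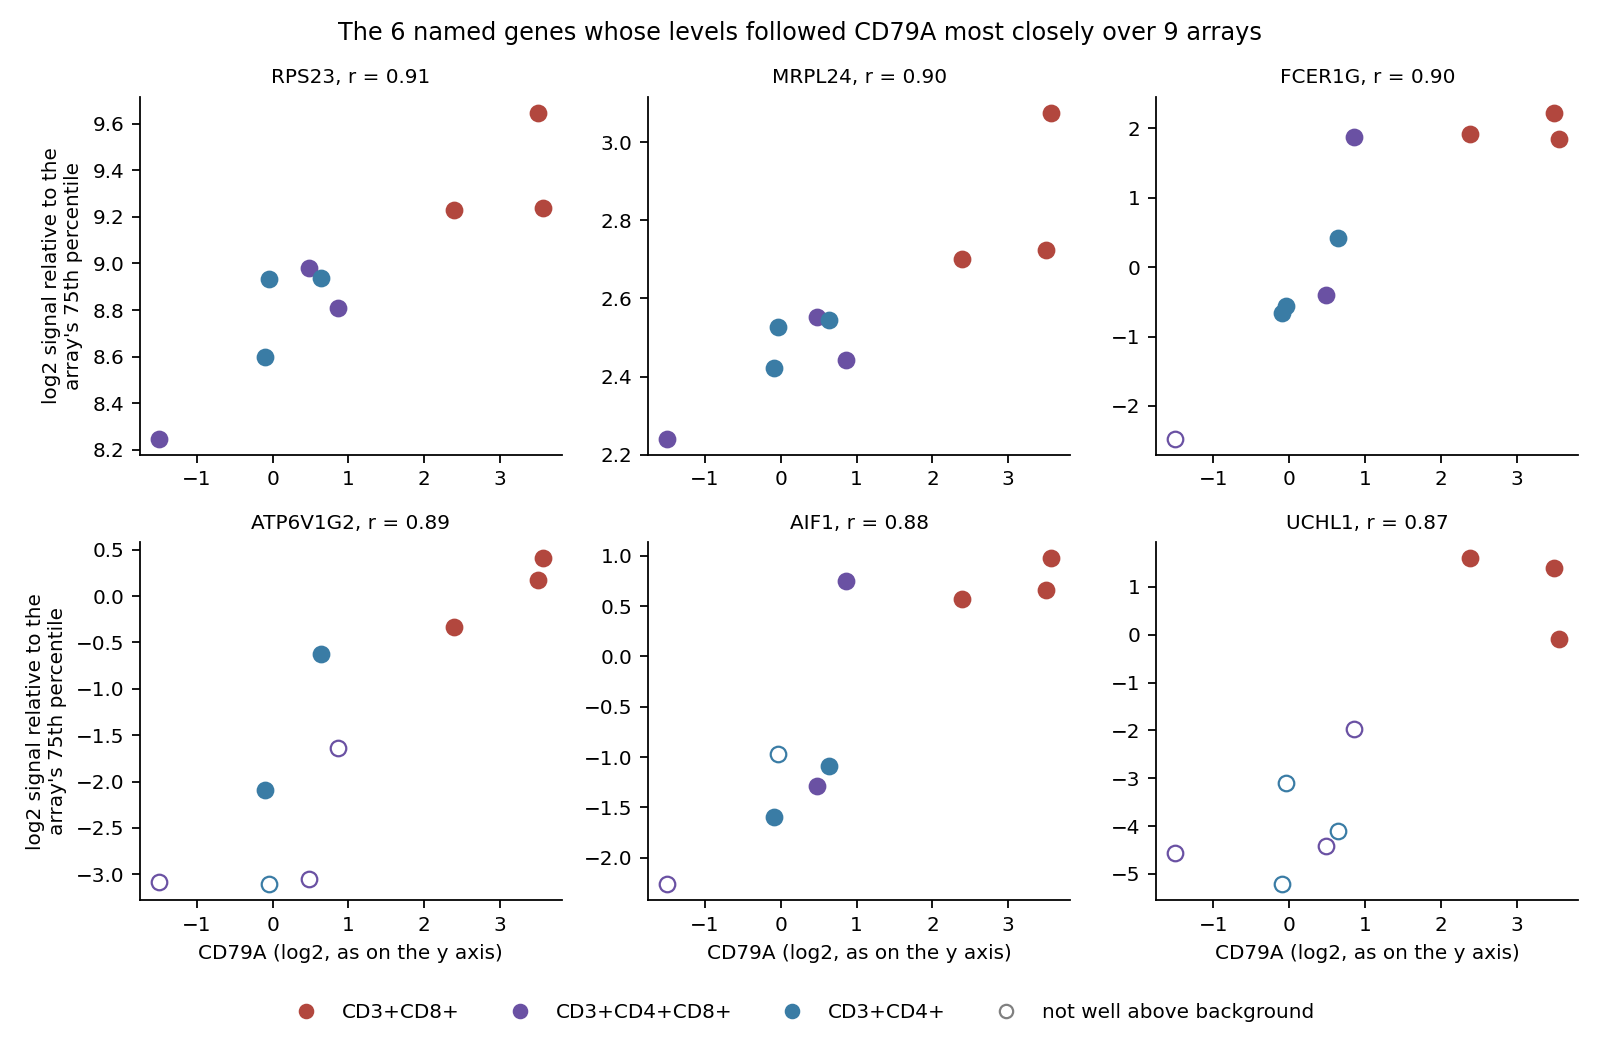
Level of the 6 named genes with the highest Pearson r to CD79A among those with a tested probe (y axis) against CD79A (x axis). Both are log2 signal relative to the array's 75th percentile, with 1 point per array coloured by fraction. Open points are not well above background. The 3 CD3+CD8+ arrays lie to the right in each panel, and for FCER1G and AIF1 1 CD3+CD4+CD8+ array reaches their height.

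Other cell types that a sort for CD3 and CD8 could hold were read from their markers, each list as the sum over its genes of the level on an array, in multiples of the array's 75th percentile. MHC class II genes, which B cells, other antigen-presenting cells and activated pig T cells express, summed to 253 to 521 on CD3+CD8+ arrays, 173 to 455 on CD3+CD4+CD8+ arrays and 37.3 to 61.1 on CD3+CD4+ arrays, over 9 of 10 genes. Against CD3+CD4+ cells, 3 of 8 tested genes were higher in CD3+CD8+ cells (0.324% of all tested probes were called higher) and 2 of 8 in CD3+CD4+CD8+ cells (0.225%). None was called between CD3+CD8+ and CD3+CD4+CD8+ cells, where 0.312% of all tested probes were called. SLA-DRA, the alpha chain of the DR molecule, was 3.27 higher (SE 0.45, limma adjusted p = 0.0066) in CD3+CD8+ than in CD3+CD4+ cells, and 2.84 higher (adjusted p = 0.0202) in CD3+CD4+CD8+ than in CD3+CD4+ cells. CD79A, as given above, differed by -0.22 (SE 0.60) between the CD3+CD4+CD8+ and CD3+CD4+ cells. The part of MHC class II cells in the CD79A level was not tested.

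The natural killer list, much of which cytotoxic T cells share, summed to 74.7 to 398 on CD3+CD8+ arrays, 55.8 to 149 on CD3+CD4+CD8+ arrays and 9.01 to 31.4 on CD3+CD4+ arrays, over 8 of 13 genes. KLRK1, which encodes the receptor NKG2D, and GZMH, a granzyme, were higher in CD3+CD8+ than in CD3+CD4+ cells, by 6.38 (SE 0.63, limma adjusted p = 0.000984) and 4.47 (SE 0.62, adjusted p = 0.0066). KLRK1 was also higher in CD3+CD4+CD8+ than in CD3+CD4+ cells, by 5.21 (limma adjusted p = 0.00588). These were 2 and 1 of 6 tested genes, where 0.324% and 0.225% of all tested probes were called higher. Between CD3+CD8+ and CD3+CD4+CD8+ cells 0 of the 6 were called, against 0.312% of all tested probes. NCR1, the receptor NKp46 that marks natural killer cells, was undetected on all arrays, as the only 1 of the 8 genes without a detected probe. The part of natural killer cells in the CD79A level was not tested.

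For monocytes and granulocytes, 8 of 14 genes summed to 1.20 to 8.19 on CD3+CD8+ arrays, 1.21 to 7.27 on CD3+CD4+CD8+ arrays and 2.94 to 4.40 on CD3+CD4+ arrays. S100A8 and S100A9, abundant in these cells, were undetected on all 9 arrays, and were the only 2 of the 8 genes without a detected probe. The median difference over the 3 tested genes was 0.76 between CD3+CD8+ and CD3+CD4+CD8+ cells and 0.64 between CD3+CD8+ and CD3+CD4+ cells. Between CD3+CD4+CD8+ and CD3+CD4+ cells it was -0.33. Of 3 tested genes 0 were called, where 0.312%, 0.437% and 0.293% of all tested probes were called in the 3 comparisons. A count of 0 is close to that background. Platelet and red cell genes (4 of 10) summed to 1.27 to 4.51, 2.41 to 4.30 and 2.79 to 3.69 in CD3+CD8+, CD3+CD4+CD8+ and CD3+CD4+ cells. Dendritic cell genes (3 of 10) summed to 5.25 to 9.22 on CD3+CD8+ arrays, less than the 9.94 to 10.5 on CD3+CD4+CD8+ arrays, and to 3.19 to 7.47 on CD3+CD4+ arrays. For gamma delta T cells, 2 of 8 genes had a probe. GATA3, which helper T cells also express, made up most of the sum, which was 0.607 to 4.58 on CD3+CD8+ arrays, 5.58 to 12.04 on CD3+CD4+CD8+ arrays and 4.69 to 7.31 on CD3+CD4+ arrays. CD163L1, annotated with the synonym WC1, was undetected on all 9 arrays. T cell receptor genes (6 of 12) summed to 171 to 254 on CD3+CD8+ arrays, 136 to 254 on CD3+CD4+CD8+ arrays and 150 to 257 on CD3+CD4+ arrays. Of 6 tested genes, 0 were called in any comparison, again close to the share of all tested probes. The part of these cell types in the CD79A level was not tested.

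The sums over the 4 B lineage lists showed no CD3+CD8+ arrays standing apart when CD79A was left out. Receptor signalling summed to 1.91 to 4.22 on CD3+CD8+ arrays, 2.85 to 3.97 on CD3+CD4+CD8+ arrays and 1.77 to 3.61 on CD3+CD4+ arrays, over 6 genes. Cell surface genes summed to 1.80 to 5.36, 4.24 to 8.61 and 3.73 to 7.87 over 8 genes in the same order. Transcription factors summed to 0.391 to 0.565, 0.392 to 0.710 and 0.571 to 0.671 over 2 genes. Immunoglobulin and plasma cell genes summed to 5.88 to 14.0, 8.75 to 16.3 and 6.41 to 9.99 over 3 genes. On each list the range over CD3+CD8+ arrays overlapped with that of at least 1 other fraction. XBP1, at means of 2.75, 3.20 and 2.73 on the log2 scale, made up most of the immunoglobulin and plasma cell sum. CD81 was a large part of the receptor signalling sum on many arrays, as CD1.1 and CD1D were of the cell surface sum. A rise in dimmer genes such as PIK3AP1 would hardly show in these sums. Of the 75 listed genes, 56 had no named probe and are not analysed here.

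**Figure D5:**
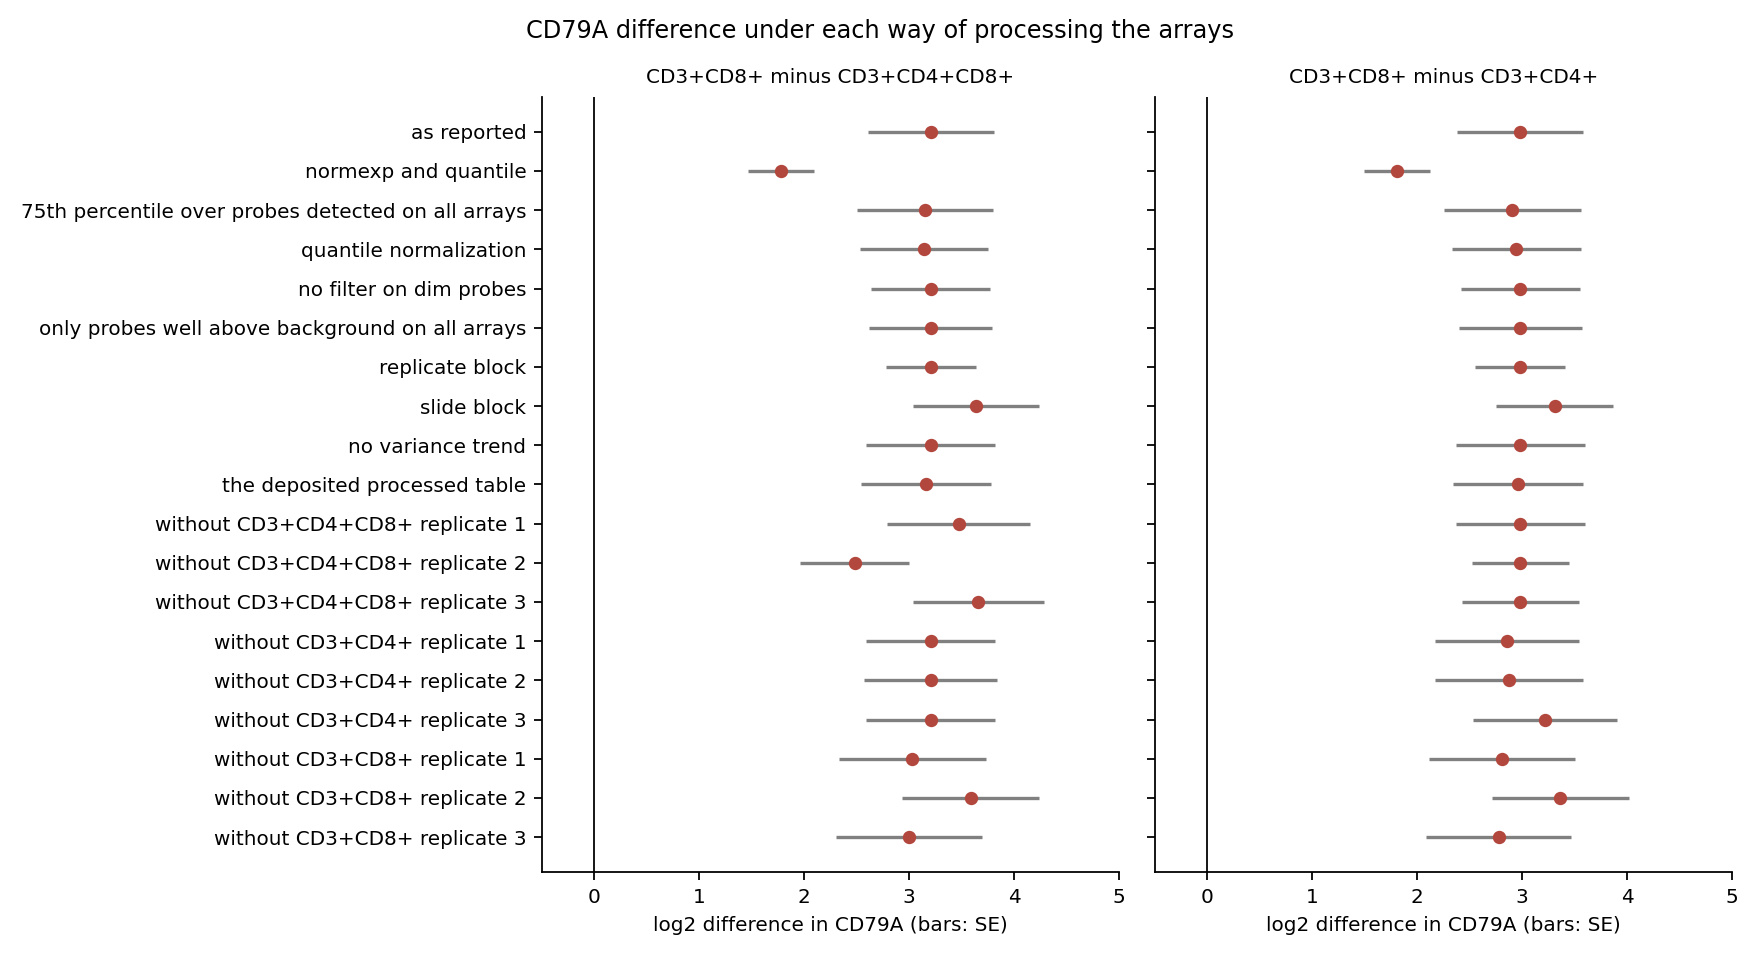
CD79A difference on the log2 scale (x axis, points, with bars for the standard error) between CD3+CD8+ and CD3+CD4+CD8+ cells (left) and CD3+CD8+ and CD3+CD4+ cells (right) as reported and under 18 alternatives (rows). All points lie above 0, between 1.78 and 3.66 on the left and between 1.81 and 3.36 on the right.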

How the data were processed

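RNA of 9 sorted samples was amplified and hybridised to porcine arrays of a single colour with Cy3, per the labels. Per the file headers, Agilent Feature Extraction 11.0.1.1 wrote the deposited scanner files, and their processed signal is an intensity on a linear scale, corrected for background and not scaled between arrays. The deposited table of processed values is on a log2 scale, and the program behind it is not stated. All its columns share a median of 2.60.

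Each processed signal was divided by the 75th percentile of its array and taken to log2, without control spots and with 1 to 12 outlier spots per array left out. Spots of a probe were averaged. A probe was tested if well above background on all 3 arrays of a fraction, with at least 2 values per fraction, which left 16026 of 43603 probes. Fractions were compared in 1 fit over 9 arrays with limma 3.58.1 in R 4.3.3 (variance trend, two-sided, p adjusted by Benjamini-Hochberg over the tested probes, threshold 0.05). The fit was tested on simulated data. A gene with several probes is given by its brightest, and other probes are named where they disagree.

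Scanner files hold accessions and not symbols. Matched without versions to the annotation of Sscrofa11.1, 6730 probes (15.4%) got a name, for 3052 genes, and the others are unnamed here. The files name no build, so no coordinates are given. Members and lists were chosen with earlier results of these data known. The rule for naming took all probes of the 5 genes, any gene of the B lineage lists and called members of other lists. It also took the 6 genes with a tested probe most like CD79A, and CD3D, CD3E, CD4 and CD8A. Undetected markers of other lists and GATA3 were named after their values were seen. CD3D was not called in any comparison. A listed gene counted in the totals is not reported here by name.

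Alternatives were normexp (offset 50) with quantile normalization, other scalings and filters, blocks for replicate number and slide, no variance trend, the deposited table and each array left out. The planned mean signal is not a column of these files, so normexp used the median signal. Slide numbers come from the file headers and stand for the physical slide. Figures were drawn with Python 3.11.15 and matplotlib 3.10.9.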

Additional observations from a re-analysis of the deposited data

How the results depend on the processing

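The CD79A differences kept their sign under all 18 alternatives. They moved by more than the spread between replicates under normexp with quantile normalization, to 1.78 against CD3+CD4+CD8+ cells and 1.81 against CD3+CD4+ cells, and the cause was not tested. Leaving out each array in turn gave 2.48 to 3.66 and 2.78 to 3.36. Between CD3+CD4+CD8+ and CD3+CD4+ cells the CD79A difference ran from -0.68 to 0.50. The count of other B lineage genes called was 0 in each comparison under all 18 alternatives. These fits held 3 to 19 of the genes. Of the 11155 to 43603 probes tested, they called 1 to 87, 12 to 110 and 2 to 144 in the 3 comparisons. A count of 0 is close to that background under each setting. The brightest CD1.1 probe did not pass under any, with a lowest adjusted p of 0.275, 0.474 and 0.986 for CD3+CD8+ against CD3+CD4+CD8+, CD3+CD8+ against CD3+CD4+, and CD3+CD4+CD8+ against CD3+CD4+ cells.

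The counts of all probes called, 50, 70 and 47 in that order of comparisons, depended strongly on the setting. For CD3+CD8+ against CD3+CD4+CD8+ cells the count was 22 with the percentile over probes detected on all arrays, 87 with no filter, 5 with only probes well above background on all arrays, 2 with the slide as a block and 25 from the deposited table. For CD3+CD8+ against CD3+CD4+ cells it was 12 with only probes well above background on all arrays and 38 with the slide block. For CD3+CD4+CD8+ against CD3+CD4+ cells it was 2 with normexp, 109 with no filter, 12 with only probes above background on all arrays and 2 with the slide block. With the replicate block the counts were 83, 110 and 144. Deviations from the fraction means correlated between arrays of the same number at -0.07 to 0.65 over the 9 pairs, 2 of which lay below 0. Between CD3+CD8+ and CD3+CD4+CD8+ cells the same-numbered pairs gave 0.27, 0.33 and 0.33, and each array correlated best with its own number, a hint of pairing in the data that the labels do not state. In the comparisons with CD3+CD4+ cells this did not hold, and the samples share only a number. Without the filter more probes were tested, and with the strict filter fewer. The cause of the other shifts was not tested.

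Leaving out each array gave 1 to 51 calls for CD3+CD8+ against CD3+CD4+CD8+ cells, where each of the arrays except CD3+CD4+ replicate 1 moved the count by over 1.5 times: CD3+CD4+CD8+ replicates 1, 2 and 3 left 1, 9 and 32, CD3+CD4+ replicates 2 and 3 left 15 and 25, and CD3+CD8+ replicates 1, 2 and 3 left 21, 3 and 18. For CD3+CD8+ against CD3+CD4+ cells the range was 31 to 83, with 38, 31 and 46 without CD3+CD8+ replicates 1, 2 and 3 and 41 and 39 without CD3+CD4+ replicates 1 and 2. For CD3+CD4+CD8+ against CD3+CD4+ cells it was 2 to 54, with 2 without CD3+CD4+CD8+ replicate 1 and 23 and 13 without CD3+CD4+ replicates 2 and 3. Signal over background limits what can be read of MS4A1, BTK, SYK and PIK3AP1, each undetected on some or most arrays.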
